A study of Saccharomyces cerevisiae with 32 samples.

Results

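The 10 histone genes of *Saccharomyces cerevisiae* were followed in RNA-Seq and Ribo-Seq libraries of 4 strains. They were chosen by name as the rows *HTA1* (YDR225W), *HTA2* (YBL003C), *HTB1* (YDR224C), *HTB2* (YBL002W), *HHT1* (YBR010W), *HHT2* (YNL031C), *HHF1* (YBR009C), *HHF2* (YNL030W), *HTZ1* (YOL012C) and *HHO1* (YPL127C), out of 7036 rows in the count table. All 10 were among the 4625 genes kept for testing, which reached 10 CPM (the count of a gene over the library total, on the usual scale) in 4 or more libraries of RNA-Seq and also of Ribo-Seq. The groups were the wild-type BY4742 strain (*wt*; *MATα his3Δ1 leu2Δ0 lys2Δ0 ura3Δ0*) and strains of the deletion collection in that background lacking *TMA46* (*tma46Δ*), *YGR054W*, which encodes eIF2A (*eif2aΔ*), or *STM1* (*stm1Δ*). Each strain had 4 cultures, each with 1 RNA-Seq and 1 Ribo-Seq library, 32 libraries in all, from cells in exponential growth. The medium was YPD in the study's methods, whereas the labels name YPD or SD without assigning them to libraries, and cycloheximide was given before harvest according to the labels. Nothing in the sources used here says whether a deletion was followed in more than 1 clone, so differences between strains may include differences between clones, and p-values measure only the spread between these cultures.

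Every nucleosome is built from the core histones H2A, H2B, H3 and H4, around which DNA is wrapped. Yeast keeps a pair of genes for each core histone and arranges them as divergently transcribed couples, an H2A gene with an H2B gene and an H3 gene with an H4 gene, which share the DNA between them as a promoter. Their transcription is restricted to a window around S phase by activators such as Spt10 and the SBF factor and by repressors such as the HIR complex, and their mRNAs, unlike those of animals, carry poly(A) tails. *HTZ1* encodes the variant H2A.Z found at the nucleosomes beside promoters, and *HHO1* encodes the linker histone H1. The RNA-Seq libraries were made from RNA selected on oligo(dT) beads, and the Ribo-Seq libraries from mRNA fragments protected by ribosomes.

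The 8 core genes lie on 3 chromosomes of the R64 assembly, and each has a single exon and overlaps no other annotated gene. *HTB1* (IV, 914317 to 914712, minus strand) and *HTA1* (IV, 915530 to 915928, plus strand) are separated by 817 bases. *HTA2* (II, 235394 to 235792, minus strand) and *HTB2* (II, 236492 to 236887, plus strand) are 699 bases apart. *HHF1* (II, 255373 to 255684, minus strand) and *HHT1* (II, 256331 to 256741, plus strand) are 646 bases apart, and *HHT2* (XIV, 575640 to 576050, minus strand) and *HHF2* (XIV, 576727 to 577038, plus strand) 676 bases. *HTZ1* (XV, 303579 to 303983) and *HHO1* (XVI, 308828 to 309604), both on the minus strand, are single genes.

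The letters known for the histone upstream activating element bound by Spt10 were searched on both strands of these intervals as GTTCCNNNNNNTTCNC or ATTCCNNNNNNTTCNC, where N is any base. All 4 intervals held a match. The stretches around the matches are shown because the shared interval is what joins the genes of a couple. Each is the plus strand of the reference, 5′ to 3′, with the matched letters in capitals. The first runs from base 915093 to 915172 of chromosome IV, the second from 236088 to 236143 and the third from 255924 to 255979 of chromosome II, and the fourth from 576326 to 576381 of chromosome XIV.
*HTB1*-*HTA1*: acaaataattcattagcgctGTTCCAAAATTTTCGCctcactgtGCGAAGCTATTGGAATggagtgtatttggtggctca
*HTA2*-*HTB2*: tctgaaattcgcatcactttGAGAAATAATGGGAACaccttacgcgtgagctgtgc
*HHF1*-*HHT1*: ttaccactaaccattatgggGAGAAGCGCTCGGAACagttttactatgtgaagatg
*HHT2*-*HHF2*: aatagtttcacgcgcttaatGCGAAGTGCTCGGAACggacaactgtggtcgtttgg
The *HTB1*-*HTA1* interval held 2 matches, 1 on each strand, and the others 1 each, on the minus strand. The 600 bases before *HTZ1* and before *HHO1* held none. Over the genome, 74 of 5999 protein-coding genes, or 1.23%, had a match in the 600 bases before their start codon, and the 8 core genes were among them. As the element is known from histone genes, their matches were to be foreseen and are no test. The 8 core genes share 4 intervals, so each interval entered this count from both of its genes. A match says only that these letters are present, and no binding was measured here.

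The copies of each core histone differ in few bases. *HTA1* and *HTA2* differ at 25 of 399 positions and *HTB1* and *HTB2* at 48 of 396. *HHT1* and *HHT2* differ at 28 of 411 positions and encode identical H3. *HHF1* and *HHF2* differ at 8 of 312 positions, all of them synonymous, and encode identical H4. The H2A proteins differ at 2 residues and the H2B proteins at 4. Only reads that map to 1 place were counted, so the capitals below are the positions by which a read can be assigned to a copy. The stretches show a part of the H2A coding sequences with 12 differences in 136 bases and a part of the H4 coding sequences with 7 differences in 200 bases. They are the coding strands of *HTA1* (chromosome IV, 915679 to 915814), *HTA2* (II, 235508 to 235643), *HHF1* (II, 255455 to 255654) and *HHF2* (XIV, 576757 to 576956).
*HTA1*: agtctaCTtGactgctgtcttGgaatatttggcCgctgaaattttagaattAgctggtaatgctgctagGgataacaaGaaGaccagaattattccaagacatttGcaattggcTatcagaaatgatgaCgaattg
*HTA2*: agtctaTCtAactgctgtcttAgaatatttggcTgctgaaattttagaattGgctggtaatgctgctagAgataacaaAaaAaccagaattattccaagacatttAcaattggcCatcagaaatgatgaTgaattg
*HHF1*: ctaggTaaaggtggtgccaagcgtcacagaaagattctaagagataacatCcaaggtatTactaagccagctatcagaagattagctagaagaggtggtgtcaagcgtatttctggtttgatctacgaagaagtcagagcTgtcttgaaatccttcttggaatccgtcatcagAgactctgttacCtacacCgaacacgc
*HHF2*: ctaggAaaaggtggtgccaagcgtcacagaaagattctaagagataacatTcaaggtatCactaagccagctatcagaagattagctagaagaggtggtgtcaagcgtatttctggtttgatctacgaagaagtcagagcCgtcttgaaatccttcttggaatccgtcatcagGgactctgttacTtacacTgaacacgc
The longest run without a difference was 80 bases in H4, 74 in H3, 65 in H2A and 35 in H2B. Yeast ribosome footprints are commonly about 28 bases long. Of the 28-base words of a coding sequence, 54.4% were unique in the genome for H4, 73.4% for H3, 85.2% for H2A and 97.3% for H2B. All such words of *HTZ1* and *HHO1* were unique. In each pair the unique 28-base words stood at the same positions of both coding sequences, whereas their number differed between the histones. The transcribed sequence beyond the coding sequence was not compared.

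Depth was 4215500 to 6717295 counts per RNA-Seq library and 1457024 to 4122370 per Ribo-Seq library. The lowest count of a core gene was 1924 by RNA-Seq and 436 by Ribo-Seq, that of *HTZ1* 411 and 132, and that of *HHO1* 532 and 245. The deleted gene had at most 2 counts in the RNA-Seq libraries and at most 23 in the Ribo-Seq libraries of its own strain. The labels place the cultures in 7 batches. Replicates 1 to 4 of *wt* were in batches 1, 2, 3 and 4, those of *tma46Δ* in 1, 2, 3 and 5, those of *eif2aΔ* in 3, 4, 5 and 6, and those of *stm1Δ* in 6, 7, 7 and 7. As *stm1Δ* shared no batch with *wt*, its contrast in a model with batch rests on its replicate 1 and on *eif2aΔ* replicate 4, and the contrast of *eif2aΔ* on its replicates 1 to 3. In such a model the *stm1Δ* estimate is that of *eif2aΔ* plus the difference between *stm1Δ* replicate 1 and *eif2aΔ* replicate 4. A shift estimated in *eif2aΔ* is thus carried into the *stm1Δ* estimate. Of the 4 alpha cell markers, *MF(ALPHA)1*, the main alpha-factor gene, was at 470 to 1053 CPM in RNA-Seq, *STE3* and *SAG1* at 44.1 to 249 CPM, and *MF(ALPHA)2* at 2.07 to 102 CPM. Of the 6 a cell markers, *MFA1*, *MFA2* and *AGA2* were at 1.32 CPM or less, *STE2* and *BAR1* at 2.37 to 8.999 CPM, and *STE6* at 14.5 to 26.8 CPM.

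The 8 core genes together took 0.513% ± 0.0308 (SD, n = 16) of the counts by RNA-Seq and 0.416% ± 0.0307 by Ribo-Seq. In *wt* RNA-Seq, levels per kilobase of coding sequence fell from *HHF2*, at 2478 ± 186 CPM per kb (SD, n = 4), through *HHT2* (2145 ± 141), *HTB1* (1829 ± 115), *HHF1* (1730 ± 110), *HTA1* (1715 ± 66.6), *HTB2* (1467 ± 156) and *HTA2* (1409 ± 65.1) to *HHT1* (1197 ± 50.6). *HTZ1* followed at 275 ± 12.1 and *HHO1* at 169 ± 8.89 CPM per kb. The ranges of neighbours in this order overlapped for *HHT2* with *HTB1*, *HTB1* with *HHF1*, *HHF1* with *HTA1*, and *HTB2* with *HTA2*, and not for the other neighbours. All 8 core genes stood above the 95th percentile of the 4617 genes with a coding length, and *HTZ1* and *HHO1* at the 87.4th and 79.5th.

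In *wt* Ribo-Seq the order per kilobase was another. *HTB2* came first at 1684 ± 117 CPM per kb (SD, n = 4), followed by *HTA1* (1625 ± 75.2), *HTB1* (1598 ± 30.7), *HHT2* (1402 ± 75.0), *HTA2* (1176 ± 42.9), *HHT1* (1080.5 ± 41.6), *HHF2* (1009 ± 140) and *HHF1* (835 ± 111). *HHO1* (211 ± 9.38) and *HTZ1* (201 ± 22.7) came last, with overlapping ranges. *HHF2* thus led the RNA-Seq order and stood 7th of 10 in the Ribo-Seq order. Over the 16 libraries of all strains, the coefficient of variation of a histone gene's CPM was 6.42% to 9.63% by RNA-Seq, and 5.73% to 14.1% by Ribo-Seq.

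**Figure D1:**
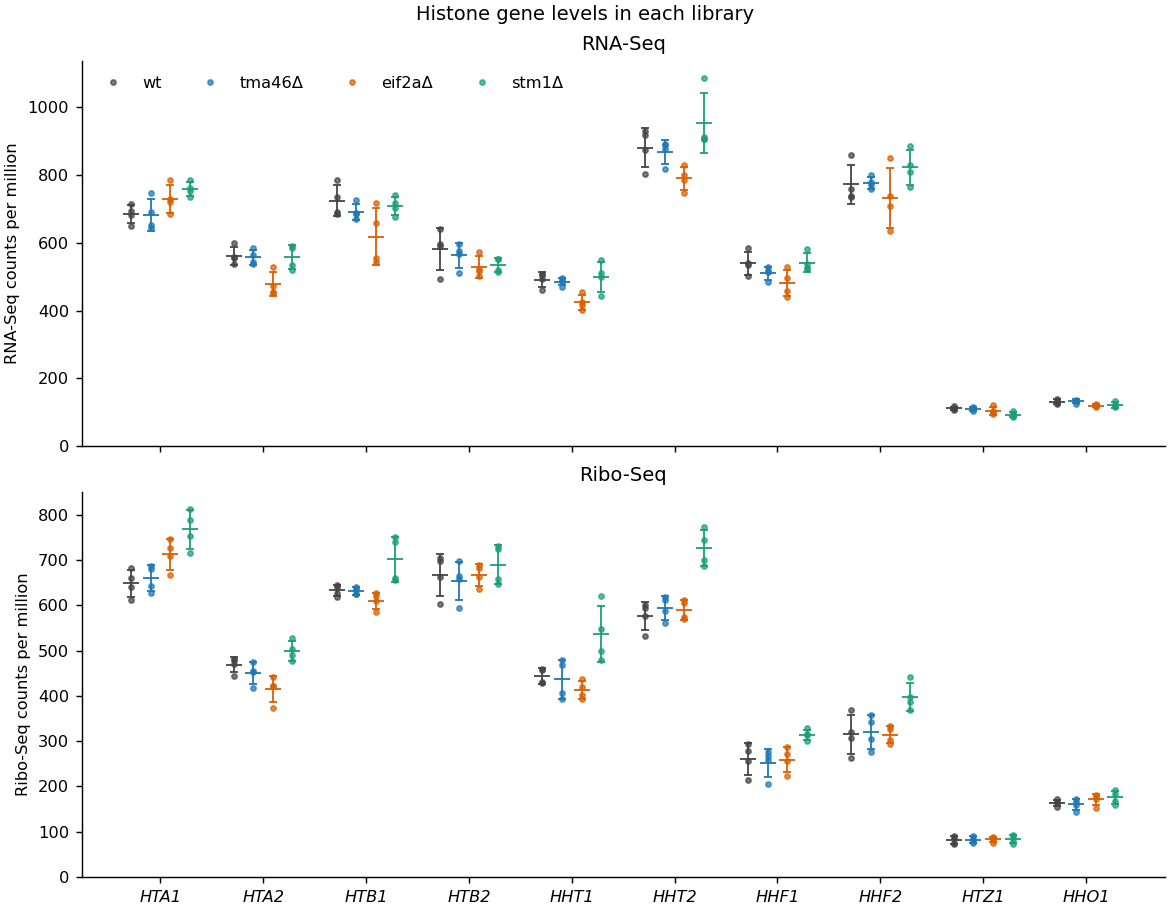
CPM of each histone gene (RNA-Seq above, Ribo-Seq below) in the 4 strains. Points are the 4 libraries of a strain, and bars the mean ± SD. *HHF1* and *HHF2* lie between 442 and 887 CPM above and between 205 and 441 CPM below, whereas *HTB2* is at 495 to 642 and 595 to 730 CPM.

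Ribosome occupancy (RO), the log2 ratio of TMM-scaled Ribo-Seq to RNA-Seq CPM of the same culture, separated the histones in *wt*. *HHF2* was at -1.54, -1.07, -1.15 and -1.49 in the 4 cultures, with a mean of -1.31 ± 0.24 (SD, n = 4), and *HHF1* at -1.24, -0.94, -1.02 and -1.06, with a mean of -1.07 ± 0.13. Both H4 genes lay below every culture's value of every other histone gene. Over the 4625 genes tested the median was -0.50 and the 10th and 90th percentiles were -1.48 and 0.32. The H4 genes stood at the 13.6th and 21.4th percentiles.

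The H2A and H2B genes and *HHT1* stood higher. Mean RO was 0.19 ± 0.08 for *HTB2*, -0.09 ± 0.05 for *HTA1*, -0.16 ± 0.03 for *HHT1*, -0.20 ± 0.07 for *HTB1* and -0.27 ± 0.07 for *HTA2*, at percentiles from 63.8 to 86.6. *HHT2* was at -0.62 ± 0.04, the 42.7th percentile, so that the genes for an identical H3 protein were apart in every *wt* culture. *HTZ1* was at -0.47 ± 0.16, near the median of all genes, and *HHO1* at 0.31 ± 0.13, the 89.9th percentile.

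**Figure D2:**
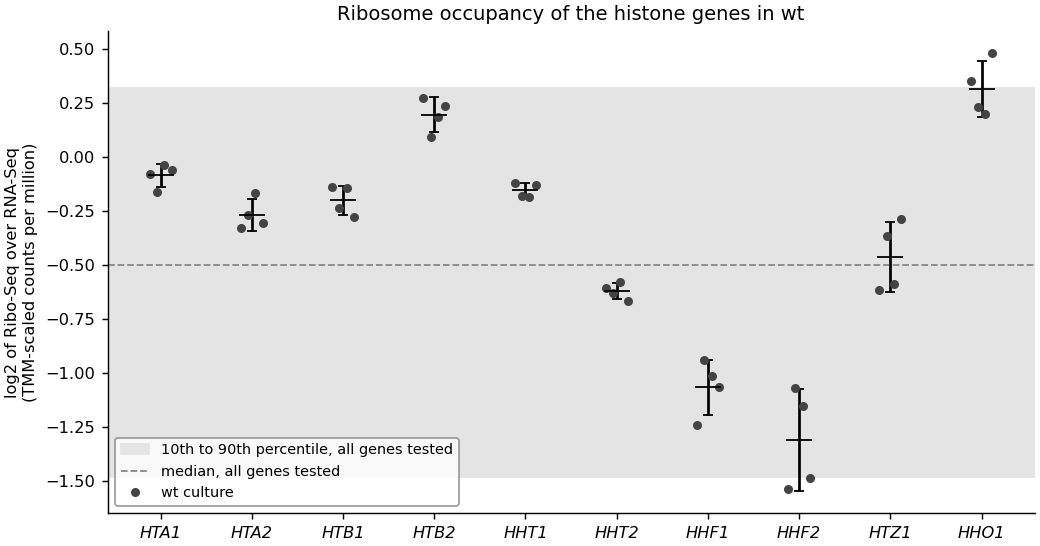
RO of each histone gene in *wt*, on a log2 scale. Points are the 4 cultures, bars the mean ± SD, the dashed line the median (-0.50) and the shaded band the 10th to 90th percentiles (-1.48 to 0.32) of all genes tested. The H4 genes *HHF1* and *HHF2* lie below the other 8.

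The Ribo-Seq level of H4 was set beside the share of its sequence in which a footprint can be placed. RO was not rescaled in this way. Per kilobase of coding sequence, and summed over both copies, the 16 Ribo-Seq libraries gave 2895 ± 183 CPM for H2A (SD, n = 16), 3316 ± 182 for H2B, 2625 ± 302 for H3 and 1949 ± 258 for H4, a ratio of highest to lowest of 1.70. Per kilobase of positions with a unique 28-base word, the values were 3644 ± 230, 3658 ± 201, 3826 ± 441 and 3924 ± 519, and the ratio was 1.08. With other word lengths, chosen after the data were seen, the ratio was 1.31 for 20 bases, 1.18 for 24, 1.05 for 32, 1.10 for 36 and 1.29 for 50, and H4 was the highest histone at 20, 24 and 28 bases and the lowest at 32, 36 and 50. Of the Ribo-Seq reads 43.4% to 50.8% mapped to several places, against 5.98% to 7.11% of the RNA-Seq reads. How many of them came from histone mRNAs was not tested. In RNA-Seq, per kilobase of coding sequence, H2A was at 3140 ± 151 CPM per kb, H2B at 3126 ± 229, H3 at 3283 ± 278 and H4 at 4150 ± 293, a ratio of highest to lowest of 1.33, which became 2.42 per kilobase of unique 28-base positions, with H4 the highest. These values include reads that extend into the transcript beyond the coding sequence, and the RNA-Seq read length is not given in the sources used here.

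**Figure D3:**
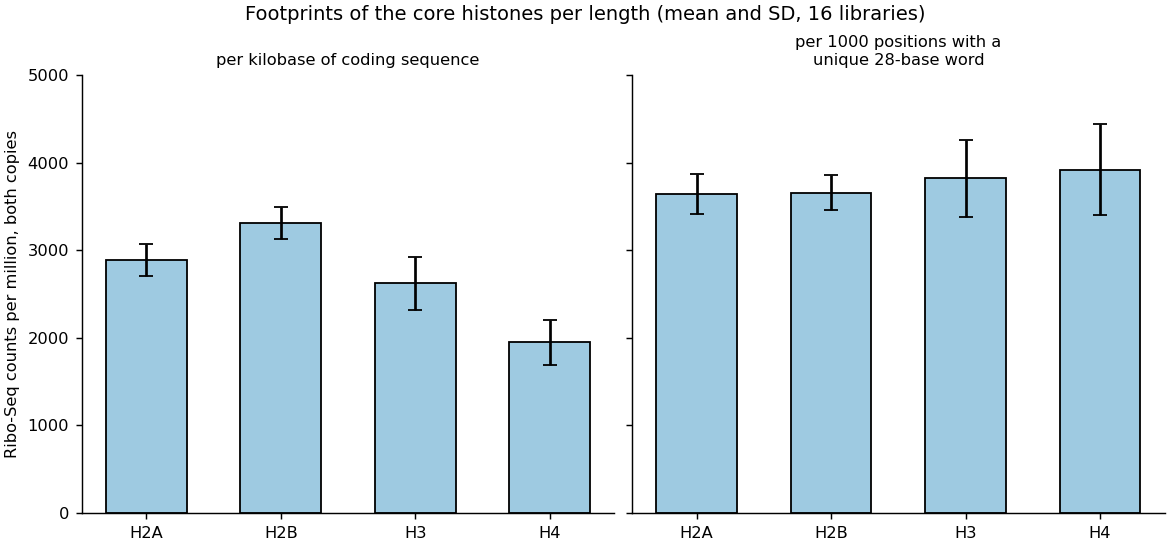
Ribo-Seq CPM of the 4 core histones, both copies summed, per kilobase of coding sequence (left) and per kilobase of positions with a unique 28-base word (right). Bars are means and whiskers SDs of 16 libraries. The means range from 1949 to 3316 on the left and from 3644 to 3924 on the right.

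Within each pair of copies, the share of the counts differed between mRNA and footprints. *HHT1*, the lesser H3 copy, had 35.3% ± 1.15 (SD, n = 16) of the H3 counts by RNA-Seq and 42.4% ± 1.66 by Ribo-Seq. Its RNA-Seq shares ran from 32.8% to 36.7% and its Ribo-Seq shares from 39.1% to 44.6%, without overlap over the 16 cultures. *HHF1*, the lesser H4 copy, had 40.1% ± 1.59 and 44.6% ± 1.85. The shift went the same way in H2A, where *HTA1* had 57.0% ± 2.78 and 60.3% ± 2.68, and the other way in H2B, where *HTB1* had 55.4% ± 2.15 by RNA-Seq and 49.0% ± 1.48 by Ribo-Seq. *HTB1* was therefore the major copy by mRNA in every culture and the minor copy by footprints in 10 of 16. Its footprint shares all lay near 50%, from 47.2% to 51.7%. Those of *stm1Δ* were all above 50%, from 50.05% to 50.69%.

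Taken within each culture, the Ribo-Seq share minus the RNA-Seq share was 7.08 ± 1.50 percentage points for *HHT1*, 4.59 ± 1.83 for *HHF1*, 3.29 ± 1.06 for *HTA1* and -6.36 ± 1.31 for *HTB1* (SD, n = 16). The sign was the same in 16 of 16 cultures for each pair. The two-sided exact sign-flip test over cultures gave p = 3.052e-05 for each, the smallest it can give, and the same value after Benjamini-Hochberg adjustment over the 4 pairs. Both copies of a pair have the same number of unique 28-base positions in the coding sequence, so the shares are the same per such position. By the labels' protocol both libraries of a culture were made from parts of 1 lysate, one by selection on oligo(dT) and the other by nuclease digestion, and what part a difference between the assays in recovering particular fragments has in these shifts was not tested.

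**Figure D4:**
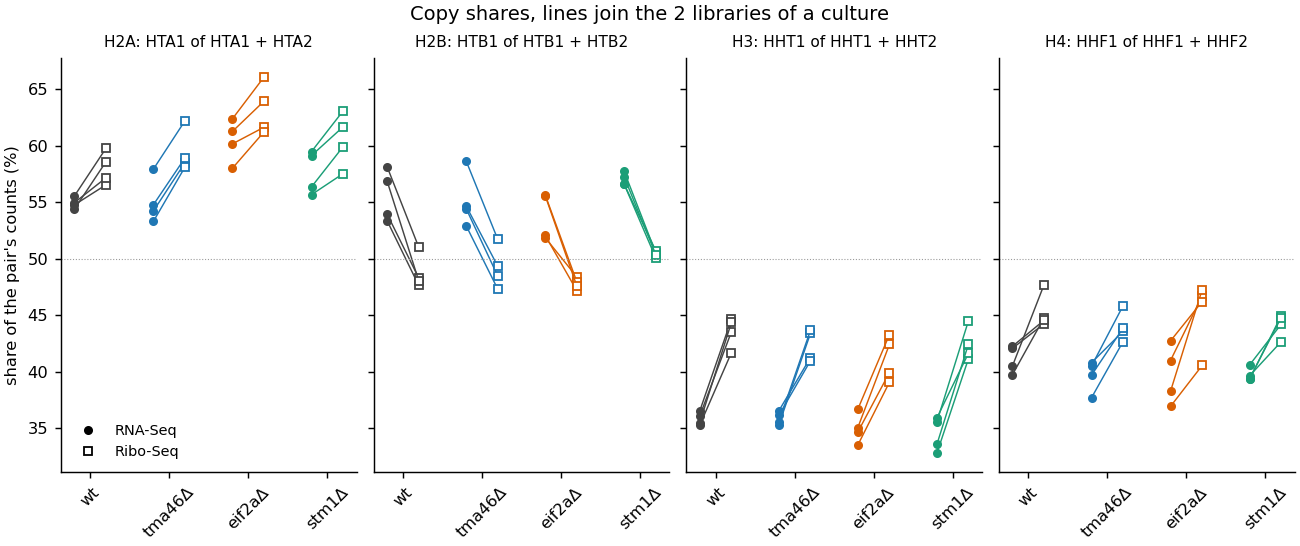
Share (%) of the first-named copy in the counts of its pair, for H2A, H2B, H3 and H4. Filled circles are RNA-Seq, open squares Ribo-Seq, and a line joins the libraries of 1 culture. Each line rises for H2A, H3 and H4 and falls for H2B, and the *eif2aΔ* circles and squares of H2A lie above those of *wt*.

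Between strains the largest difference in a share was that of H2A in *eif2aΔ*. By RNA-Seq *HTA1* had 55.5%, 54.8%, 54.9% and 54.4% of the H2A counts in *wt* and 60.2%, 61.3%, 62.4% and 58.0% in *eif2aΔ*. By Ribo-Seq it had 59.8%, 56.5%, 57.2% and 58.6% in *wt* and 61.6%, 63.9%, 66.1% and 61.2% in *eif2aΔ*. The strains did not overlap in either assay. The difference of means was 5.54 points by RNA-Seq and 5.21 points by Ribo-Seq, each with p = 0.02857 by the two-sided exact permutation test, the smallest that 4 against 4 cultures can give, and 0.2286 after adjustment over the 24 comparisons of 4 pairs, 3 strains and 2 assays. At that adjustment none of the 24 passed 0.05, which would have needed at least 14 of them at the smallest p. The permutations leave the batches out of account.

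The same direction was seen within batches, in single pairs of the same libraries. *eif2aΔ* exceeded *wt* by 5.20 points in batch 3 and 6.87 in batch 4 by RNA-Seq, and by 4.48 and 5.36 by Ribo-Seq. It exceeded *tma46Δ* by 6.85 points in batch 3 and 7.60 in batch 5 by RNA-Seq, and by 3.52 and 7.16 by Ribo-Seq. With batch and strain in a linear model, the log2 ratio of *HTA1* to *HTA2* was 0.40 (SE 0.07) higher in *eif2aΔ* than in *wt* by RNA-Seq and 0.36 (SE 0.07) by Ribo-Seq, 5.81 and 5.19 times the SE. No p is given for this model, in which few cultures share a batch. Leaving out 1 culture in turn gave differences from 4.89 to 6.35 points and from 4.25 to 5.87 points.

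The underlying levels do not settle which copy moved. *HTA2* was at 555, 537, 558 and 599 CPM in the *wt* RNA-Seq libraries and at 453, 456, 473 and 529 CPM in those of *eif2aΔ*, below every *wt* library before TMM scaling and overlapping after it. Its Ribo-Seq CPM was 445, 470, 480 and 482 in *wt* and 442, 421, 373 and 422 in *eif2aΔ*. *HTA1* was at 693, 650, 681 and 714 CPM in *wt* RNA-Seq and at 684, 720, 785 and 731 CPM in *eif2aΔ*, where the ranges overlapped. In the test across all genes, edgeR with batch and strain, neither copy passed an FDR of 0.05: *HTA2* had a log2 fold change of -0.33 (SE 0.10, FDR 0.1588) in RNA-Seq and -0.28 (SE 0.09, FDR 0.1373) in Ribo-Seq, and *HTA1* of 0.07 (SE 0.09, FDR 0.7586) and 0.09 (SE 0.07, FDR 0.6259). Of the 10 histone mRNAs in that fit, 9 were below 0, *HTA2* among them, and *HTA1* alone was above.

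In *stm1Δ* the *HTA1* share was 55.7%, 56.3%, 59.1% and 59.5% by RNA-Seq, above every *wt* library, with a difference of 2.74 points, an exact p of 0.02857 and 0.2286 after adjustment. The Ribo-Seq ranges overlapped. In batch 6, where *stm1Δ* can be set beside *eif2aΔ*, the *HTA1* share of *stm1Δ* minus that of *eif2aΔ* was -2.34 points by RNA-Seq and -3.71 points by Ribo-Seq. The *tma46Δ* shares differed from *wt* by 0.15 points (RNA-Seq) and 1.43 points (Ribo-Seq) for *HTA1*, with exact p of 0.9429 and 0.2857. For H2B, H3 and H4, the shares of each deletion strain overlapped those of *wt* in both assays, and the differences of means lay between -2.38 points (*HHT1* in *eif2aΔ*, Ribo-Seq) and 1.66 points (*HTB1* in *stm1Δ*, Ribo-Seq). In the linear model with batch, 7 of the 24 log2 ratios were over 2 SE from 0, those of *HTA1* in *eif2aΔ* among them. The log2 ratio of *HHF1* to *HHF2* in *stm1Δ* RNA-Seq was -0.34 (SE 0.08) relative to *wt*, and that of *HHT1* to *HHT2* -0.31 (SE 0.09), against -0.08 and -0.09 without batch. The others were *HTB1* to *HTB2* in *stm1Δ* Ribo-Seq (0.16, SE 0.04) and *HHF1* to *HHF2* in *eif2aΔ* (-0.14, SE 0.04) and *tma46Δ* RNA-Seq (-0.08, SE 0.04). The *stm1Δ* values of this model contain those of *eif2aΔ*. In RNA-Seq these were -0.14 for *HHF1* to *HHF2* and -0.07 for *HHT1* to *HHT2*, and in Ribo-Seq -0.01 for *HTB1* to *HTB2*.

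Of the 10 histone genes, none was called at an FDR of 0.05 in any of the 9 comparisons of a deletion strain with *wt*. These comparisons share the *wt* libraries. Of all 4625 genes the same test called 0.0216%, 0.454% and 0.0649% by mRNA in *tma46Δ*, *eif2aΔ* and *stm1Δ*, 0.0216%, 1.84% and 0.411% by footprints, and 0.0%, 0.0432% and 0.0% by RO, so that a count of 0 among 10 genes does not set the histone genes apart. In *tma46Δ* no histone gene reached an unadjusted p of 0.05, and their log2 fold changes lay between -0.07 and 0.01 for mRNA, -0.08 and 0.05 for footprints and -0.10 and 0.07 for RO, with standard errors from 0.06 to 0.13. No histone gene of *tma46Δ* was farther from 0 than *HHF1* for mRNA (-0.07), *HHO1* for footprints (-0.08) and *HHO1* for RO (-0.10). At an unadjusted p of 0.05, 75, 170 and 60 of the 4625 genes passed. DESeq2 called *HTB1* in *eif2aΔ* RNA-Seq, where it called 1.1% of all genes, and *HTB1*, *HTB2* and *HHT1* in *stm1Δ* RNA-Seq, where it called 9.37% of the 2294 genes to which it gave an adjusted p. It called none in the other 7 comparisons.

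In *eif2aΔ* 9 of 10 histone mRNAs had a log2 fold change below 0, with a median of -0.25, beside a median of 0.00 and 2312 of 4625 below 0 over all genes tested. At an unadjusted p of 0.05, 7 of 10 passed, against 632 of 4625. *HTB1* had the lowest FDR: its RNA-Seq CPM was 687, 692, 734 and 785 in *wt* and 544, 556, 657 and 718 in *eif2aΔ*, with overlapping ranges, and its log2 fold change was -0.38 (SE 0.09, FDR 0.08442). *HHT1*, at 462, 493, 507 and 505 CPM in *wt* and 403, 425, 418 and 454 CPM in *eif2aΔ*, was lower in every *eif2aΔ* library than in any of *wt*, with a log2 fold change of -0.30 (SE 0.08, FDR 0.1009). Scaled by TMM, however, no histone mRNA was apart between the strains, where 6.77% of all genes were.

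*HHF1* (-0.29), *HTB2* (-0.27), *HHT2* (-0.24), *HHO1* (-0.20), *HTZ1* (-0.17) and *HHF2* (-0.15) followed, with standard errors from 0.07 to 0.09. Within batches, *eif2aΔ* was below *wt* for 9 of 10 genes in batch 3 (median -0.26 log2) and for 10 of 10 in batch 4 (-0.28). It was below *tma46Δ* for 9 of 10 in batch 3 (-0.27) and 8 of 10 in batch 5 (-0.13). Each of these pairs sets 1 library against 1, with *eif2aΔ* replicate 1 in both pairs of batch 3. They are libraries of the same fit and no separate support, and the genes are not replicates. The share of all genes lower in these pairs is not given. Without the batch term the median was -0.17, again with 9 below 0. Under each of the 26 alternative fits the same 9 genes were below 0 and *HTA1* above it. After the ComBat-seq correction that the study used, with strain alone in the model, 9 of 10 were called lower, all but *HTA1*, where 20.7% of all genes were called. Without *stm1Δ* replicate 2, which shares in the estimate of the spread, 5 of 10 were called where 3.72% of all genes were, and *HTB1* alone among the histone genes was called without *tma46Δ* replicate 4 (0.368% of all genes) or *eif2aΔ* replicate 3 (0.476%). As these are bulk cultures, fewer cells in S phase and less histone mRNA per cell cannot be told apart.

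Histone footprints in *eif2aΔ* had a median log2 fold change of -0.13, with 9 of 10 below 0 and 2 of 10 at an unadjusted p of 0.05, *HTA2* and *HHT1* (-0.22), against 681 of 4625 genes. The others lay between -0.16 (*HHF1*) and 0.09 (*HTA1*). Without the batch term the median was -0.03, with 6 of 10 below 0. *HTA2* was the only one whose TMM-scaled Ribo-Seq libraries were all below *wt*, against 9.71% of all genes apart, and the only one called after ComBat-seq, where 17.8% of all genes were, or without *stm1Δ* replicate 2, where 5.41% were. All 10 RO estimates were above 0, with a median of 0.14, a highest value of 0.25 (*HTB1*, SE 0.12, FDR 0.9995) and none at an unadjusted p of 0.05, which 153 of 4625 genes passed. *HHT1* and *HHT2* had RO above *wt* in every culture, where 4.0% of all genes were apart.

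In *stm1Δ* the size of the change in histone mRNA depended on the batch term. The core genes took 0.525%, 0.526%, 0.528% and 0.572% of the RNA-Seq counts, against 0.496%, 0.511%, 0.533% and 0.556% in *wt*. In the model with batch, all 10 log2 fold changes of mRNA were below 0, with a median of -0.42, and 5 of 10 passed an unadjusted p of 0.05, against 1008 of 4625 genes. These estimates contain those of *eif2aΔ*, of which 9 of 10 were below 0, and are not a result of *stm1Δ* alone. Lowest were *HTB2* (-0.63, SE 0.14, FDR 0.07275), *HTB1* (-0.62, SE 0.17, FDR 0.08794), *HTZ1* (-0.61, SE 0.18, FDR 0.09672) and *HHT1* (-0.54, SE 0.15, FDR 0.08524), followed by *HHF1* (-0.47), *HTA2* (-0.38), *HHO1* (-0.32), *HHT2* (-0.23), *HHF2* (-0.12) and *HTA1* (-0.12). Without the batch term the median was -0.12, and the values of *HTB2*, *HTB1* and *HHT1* were -0.24, -0.15 and -0.09. *HTZ1* alone was then called, at -0.37 (FDR 0.02922), 1 of 10 where 9.66% of all genes were called. Its FDR over 23 alternatives ran from 4.831e-08 to 0.1995. Without *stm1Δ* replicate 2, 5 of 10 were called where 12.5% of all genes were. The strain and the batches of its replicates 2 to 4 cannot be told apart.

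*HTZ1* was at 109, 112, 118 and 106 CPM in *wt* and at 103, 95.8, 86.3 and 88.7 CPM in *stm1Δ*, each *stm1Δ* library below each *wt* library. *HTB1* and *HHO1* joined it when the counts were scaled by TMM, 3 of 10 histone genes where 15.9% of all genes were apart. In batch 6, 8 of 10 histone mRNAs were lower in *stm1Δ* replicate 1 than in *eif2aΔ* replicate 4, with a median of -0.18 log2. This pair of single libraries is a part of the *stm1Δ* estimate with batch and no separate support. The share of all genes lower in it is not given. After ComBat-seq all 10 were called lower, where 68.1% of all genes were called.

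Histone footprints in *stm1Δ* took a larger part of the libraries than in *wt*. The core genes had 0.454%, 0.465%, 0.469% and 0.465% of the Ribo-Seq counts, against 0.377%, 0.408%, 0.407% and 0.413% in *wt*, without overlap, and against 0.387% to 0.404% in *eif2aΔ*. After TMM scaling the sums were 4406, 4680, 4688 and 4593 CPM against 3930, 4119, 4255 and 4306 CPM in *wt*. *HHT2*, at 686, 701, 773 and 744 CPM in *stm1Δ* and 533, 594, 601 and 577 CPM in *wt*, was the only histone gene that stayed apart after TMM scaling, where 13.7% of all genes were. Its log2 fold change was 0.27 (FDR 0.02682) without the batch term, where 4.76% of all genes were called, and 0.10 (SE 0.14, FDR 0.7741) with it, and its FDR over 23 alternatives ran from 0.02484 to 0.9376. With batch in the model the 10 genes had a median of -0.07, with 4 above 0. After ComBat-seq *HTB2* (-0.14) and *HHF1* (-0.14) were called lower and *HTA1* (0.11) higher, 3 of 10, where 55.4% of all genes were called.

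RO of most histone genes was estimated higher in *stm1Δ* than in *wt*. With batch in the model 9 of 10 estimates were above 0, with a median of 0.28 beside 0.01 over all genes, and none passed an FDR of 0.05. They too contain the *eif2aΔ* estimates, all of which were above 0. *HTZ1* (0.59, SE 0.28), *HTB1* (0.57, SE 0.23) and *HTB2* (0.42, SE 0.20) passed an unadjusted p of 0.05, each with an FDR of 0.88, where 255 of 4625 genes did. DESeq2 called none. Without the batch term all 10 were above 0, with a median of 0.27. RO of *HTB2* was 0.27, 0.09, 0.18 and 0.23 in *wt* and 0.54, 0.46, 0.35 and 0.31 in *stm1Δ*. *HTB1*, *HTB2*, *HHT1*, *HHT2*, *HHF1* and *HHO1*, 6 of 10, had RO above *wt* in every culture, where 8.22% of all genes were apart. ComBat-seq called 9 of 10 higher, all but *HHF2*, where 46.2% of all genes were called.

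**Figure D5:**
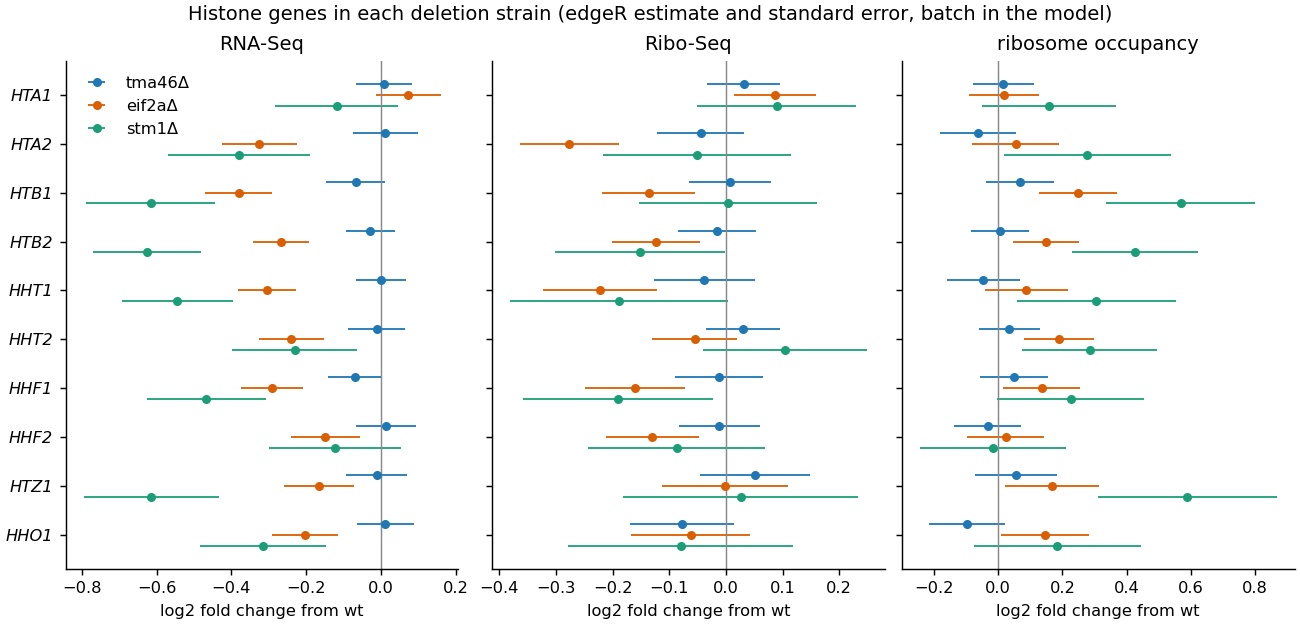
Log2 fold change of each histone gene from *wt* in the 3 deletion strains, for RNA-Seq, Ribo-Seq and RO, as edgeR estimates with standard errors, batch in the model. The axes of the panels differ. The *tma46Δ* points lie between -0.10 and 0.07, and none of the 90 estimates passed an FDR of 0.05.

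Over the 16 cultures the levels of the H2A and H2B genes varied with those of the H3 and H4 genes. The mean log2 level of *HTA1*, *HTA2*, *HTB1* and *HTB2* correlated with that of *HHT1*, *HHT2*, *HHF1* and *HHF2* at a Pearson r of 0.84 and a Spearman rho of 0.73 by RNA-Seq, and at 0.65 and 0.67 by Ribo-Seq. Without the 2 cultures farthest from the median of H2A and H2B, r was 0.68 and 0.56. With batch and strain removed by the linear model, r was 0.72 by RNA-Seq and 0.39 by Ribo-Seq over 14 cultures, and 0.67 and 0.66 when the 2 farthest were left out. That model left 6 residual degrees of freedom, and where a batch held a pair of cultures their residuals mirror each other. The 14 points are therefore not independent. The points share library, batch and scaling factor, and these values are descriptions.

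Between single core genes r ranged from -0.15 to 0.89 over 28 pairs in RNA-Seq, with a median of 0.61, and from -0.17 to 0.84 with a median of 0.45 in Ribo-Seq. The mean of the core genes was most like *SUI1* (r = 0.93), *RPS28A* (0.90), *RFA3* (0.90), *RPL35B* (0.87) and *COF1* (0.87) over the 16 RNA-Seq libraries, and most like *TOM5* (0.85), *LSM6* (0.84), *ATP15* (0.83), *PFY1* (0.82) and *TMA7* (0.82) over the 16 Ribo-Seq libraries. Of these *RFA3* encodes a subunit of the single-strand binding factor RPA. *HTZ1* correlated with the core mean at 0.51 and 0.17, and *HHO1* at 0.60 and 0.18.

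The genes that act on histone genes and proteins gave few calls. Of the 9 regulators of histone transcription, which include the HIR genes, *ASF1*, *RTT106*, *SPT10*, *SPT21* and *YTA7*, none passed an FDR of 0.05 in any of the 9 comparisons, and their median log2 fold change in *eif2aΔ* RNA-Seq was 0.10. *SPT10*, the activator of the core genes, was at -0.31 (SE 0.14, FDR 0.3386) there and *YTA7* at 0.24 (SE 0.13, FDR 0.4423). Of the 9 regulators, 4 were below 0 and 5 above. Of the histone chaperones, importers and assembly factors, 18 of 19 were tested and none was called, with medians of 0.06 in *eif2aΔ* and 0.00 in *stm1Δ* RNA-Seq. In *stm1Δ* RNA-Seq *SPT21*, which works with Spt10, was at 0.72 (SE 0.31, FDR 0.1993) and *SCM3*, the chaperone of the centromeric H3 variant, at 0.79 (SE 0.33, FDR 0.1934). *YTA7* was at 0.53 (SE 0.26, FDR 0.2439) and *FPR4* at -0.57 (SE 0.18, FDR 0.1071) in the same comparison.

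Among genes of the cell cycle, none of the 20 G1/S genes and none of the 10 G2/M genes was called in any comparison. The median of the G1/S genes, which include replication factors expressed in the same window as histones, was -0.07 in *eif2aΔ* RNA-Seq, with 13 of 20 below 0, and 0.12 in *stm1Δ* with 7 of 20 below 0. *SMC3*, a cohesin subunit, had the largest G1/S value, at 0.69 (SE 0.24, FDR 0.2185) in *eif2aΔ* and 1.29 (SE 0.45, FDR 0.1279) in *stm1Δ*. *SWI4* followed, at 0.40 (SE 0.18, FDR 0.3502) in *eif2aΔ* and 1.15 (SE 0.35, FDR 0.101) in *stm1Δ*. Of the G2/M genes, 10 of 10 were above 0 in *stm1Δ* RNA-Seq, with a median of 0.19, against 2335 of 4625 genes tested. In *eif2aΔ* RNA-Seq 7 of 10 were above 0, with a median of 0.04, and in *tma46Δ* 1 of 10, with a median of -0.07. Of the 9 M/G1 genes, all were below 0 in *eif2aΔ* RNA-Seq, with a median of -0.20, and *CTS1*, the chitinase of cell separation, passed the threshold in *eif2aΔ* Ribo-Seq at -0.41 (SE 0.07, FDR 0.01319). It was the only gene of these lists called. At the same time the alpha cell markers were below 0 for 4 of 4 genes in *eif2aΔ* and in *stm1Δ* RNA-Seq, with medians of -0.36 and -0.65 and none called. Their part in the histone values was not tested.

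The proteins encoded are rich in basic residues. Lysine and arginine made up 24.3% of H3 and of H4, 24.03% of H1, 20.1% of H2A.Z, 19.8% and 19.1% of the H2B proteins and 15.9% of H2A, where the median of 6026 yeast proteins was 11.8%. Of the 10 genes in *wt*, *HHO1* had the highest RO and *HHF2* the lowest. RO was not rescaled for unique positions, however. Of the 28-base words 54.4% were unique for H4 and all for *HHO1*. A relation between basic residues and RO was not tested.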

How the data were processed

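RNA-Seq and Ribo-Seq counts of 32 libraries were used. The authors deposited read counts per gene without normalization, made by trimming with cutadapt 2.10, collapsing duplicate Ribo-Seq reads, removing rRNA reads with Bowtie2 (version 1.2.3 in the submitters' notes) and counting uniquely mapped reads with STAR 2.7.9a on R64. The deposited table equals the sense-strand counts of all 32 per-library files. CPM divides by all counts on genes, and TMM-scaled values use the genes tested. Only genes at 10 CPM in at least 4 libraries of each assay were tested.

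Strains were compared with edgeR 4.0.16 in R 4.3.3 (quasi-likelihood test with TMM factors, 1 fit per assay over the 4 strains with terms for batch and strain, Benjamini-Hochberg over 4625 genes), and RO as the interaction of strain and assay. The RO fit took both libraries of a culture as independent, so its standard errors and p-values leave out that pairing. With culture as block, an alternative, no histone gene was called for RO. Shares were compared by exact permutation tests. Correlations are given without p-values. ComBat-seq (sva 3.50.0), DESeq2 1.42.0, other scalings, filters and designs, and leaving out each culture were alternatives. The fits were tested on simulated data.

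The histone genes and gene lists were chosen with earlier results of these data known. All 10 histone genes were to be named in every comparison, and where their values are close they are given as ranges. List genes are named if called, or else among the 2 largest changes. The 5 genes most like the core mean are named. Symbols, coordinates and sequences are RefSeq's of R64, the build of the counts. Replicate libraries differed by more than sampling noise (chi-square per degree of freedom 2.46 to 26.4), so none was merged. Replicate numbers mark a shared batch only for replicates 1 to 3 of *wt* and *tma46Δ*, and deviations of these pairs had r from 0.32 to 0.67.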

Additional observations from a re-analysis of the deposited data

Results flagged for a closer look

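Within groups of 4 cultures, 152 sets of values (CPM, RO and copy shares) were searched for a culture far from the rest, by Dixon's criterion. Chance alone passes about 1 in 20, or 7.6 sets, and 3 passed. *HHT2* in *stm1Δ* replicate 4 was at 1086 CPM in RNA-Seq (others 905 to 913). The *HHF1* share of the H4 footprints was 47.7% in *wt* replicate 4 (others 44.2% to 44.8%) and 40.5% in *eif2aΔ* replicate 3 (others 46.2% to 47.2%).

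Reads on the strand opposite to each histone gene were outside the comparisons. Of 60 comparisons of a deletion strain with *wt*, 5 had at least 10 such counts in each library of the deletion strain, and 1 had every library above *wt*: opposite to *HTZ1*, *stm1Δ* RNA-Seq had a mean of 7.89 CPM (6.75 to 9.54), against 3.92 to 6.40 in *wt*. Of the 581 genes tested that had as many opposite-strand counts in *stm1Δ* RNA-Seq, 7.75% were likewise above *wt* in every library. Over all RNA-Seq libraries these were 13 to 46 counts, 1.80% to 9.96% of the reads over *HTZ1*.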

How the results depend on the processing

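Counts of histone genes called rose from 0 under these alternatives. ComBat-seq gave 9 in *eif2aΔ* RNA-Seq, 10 in *stm1Δ* RNA-Seq, 1 in *eif2aΔ* Ribo-Seq, 3 in *stm1Δ* Ribo-Seq and 9 for *stm1Δ* RO. DESeq2 gave 1 (*HTB1*) in *eif2aΔ* and 3 in *stm1Δ* RNA-Seq, and *wt* with *eif2aΔ* alone gave 2 in RNA-Seq (*HTA2* and *HTB1*). Under that last fit the calls over all genes lay within the 15 to 959 given below. Their share is not given, so these 2 calls do not set the histone genes apart. Without the batch term, and likewise with the replicate block, 1 was called in *stm1Δ* RNA-Seq (*HTZ1*) and 1 in *stm1Δ* Ribo-Seq (*HHT2*). Of all 4625 genes, the fit without batch called 447 and 220 in these comparisons, and that with the block 251 and 157. The block changed no other call. Leaving out 1 culture gave 0 to 5 in *eif2aΔ* and in *stm1Δ* RNA-Seq, 0 to 1 in *eif2aΔ* Ribo-Seq and 0 elsewhere. The 5 came without *stm1Δ* replicate 2, when 172 genes in all were called in *eif2aΔ* RNA-Seq. Over all genes, calls ran under the other settings from 1 to 7, 15 to 959 and 3 to 3151 in RNA-Seq of *tma46Δ*, *eif2aΔ* and *stm1Δ*, from 1 to 76, 42 to 821 and 11 to 2561 in Ribo-Seq, and from 0 to 1, 1 to 62 and 0 to 2137 for RO. The main counts were 1, 21 and 3, then 1, 85 and 19, then 0, 2 and 0. Leaving out 1 culture gave 1, 4 to 172 and 1 to 577 in RNA-Seq, 1 to 2, 7 to 250 and 1 to 189 in Ribo-Seq, and 0, 1 to 5 and 0 to 1 for RO, so that the shares of genes called are themselves uncertain. The main fits called no histone gene, so none of their calls could reverse. No value called under an alternative had the opposite sign to the main estimate, and 158 of 2280 single-gene values changed sign while uncalled. Alternatives could differ from each other. *HHF1* in *stm1Δ* Ribo-Seq was called at -0.14 after ComBat-seq and was at 0.21, uncalled, without the batch term. Copy shares in *wt*, their shift between assays and RO in *wt* stayed within their replicate spread or side of the threshold under every alternative run. Several of these checks could not have failed. Leaving out 1 of 4 cultures cannot move a mean by more than the SD. Scaling by unique words divides both copies alike and leaves a share unchanged. With the same sign in 16 of 16 cultures, leaving out 1 must again give the smallest p. Only the unstranded counts could move the shares, and only the other scalings RO. Adding batch moved the log2 ratio of the copies by more than the *wt* spread in 5 of 24 cases, 4 of them in *stm1Δ*. Without *stm1Δ* replicate 1 or *eif2aΔ* replicate 4 the *stm1Δ* contrast could not be fitted.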
